A study of Homo sapiens with 6 samples.

Results

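Phase I enzymes are the first line of drug and toxin metabolism. Of these enzymes, the present data cover an esterase group, an alcohol and aldehyde dehydrogenase group, a monoamine oxidase and the flavin-containing monooxygenases. Members were chosen by gene symbol in the platform annotation, namely symbols of the CYP, ALDH, ADH, AKR1, FMO and CES families together with AADAC, POR, EPHX1, EPHX2 and MAOA, without pseudogenes. Of 14812 named genes, 12 met this rule. They were AADAC, CES1, CES4A, CES5A, ADH6, ALDH2, MAOA, FMO1, FMO2, FMO4 and FMO5, which are 11 protein-coding genes, and 1 antisense RNA, ALDH1L1-AS2. Cytochromes P450, the AKR1 reductases, POR, EPHX1 and EPHX2 were not analysed here. The 11 protein-coding genes described therefore encode phase I enzymes other than the cytochromes P450, and ALDH1L1-AS2 encodes no enzyme.

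The samples were HuH7 cells, a human hepatoma line, in 3 EGOT gapmer arrays and 3 control gapmer arrays. Cells of both groups had also been given a plasmid expressing PKR, the kinase that senses double-stranded RNA, together with poly I:C, which mimics such RNA, and RNA was taken 36 hours after transfection. A gapmer is a short oligonucleotide that directs RNase H to a complementary RNA, here the long noncoding RNA EGOT, and each well received 50 pmol of it. A single EGOT gapmer was used, and no sample lacked PKR and poly I:C. The labels do not say whether replicates were separate cultures. The p-values therefore set each difference against the spread among these arrays only, and that spread may be technical. The sequences that define the groups, as the labels give them, were the following.
EGOT gapmer: AGAGACACTTAGAAGA
control gapmer: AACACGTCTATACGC

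Phase I reactions introduce or unmask a polar group by oxidation, reduction or hydrolysis, after which conjugating enzymes can act. In liver these enzymes sit mainly in the endoplasmic reticulum, the mitochondria and the cytosol of hepatocytes, and they also handle ethanol, biogenic amines and lipid esters. Hepatoma lines such as HuH7 are known to hold less of many phase I enzymes than hepatocytes do. The values are log2 expression after RMA, and differences are EGOT gapmer minus control gapmer, so that a difference of 1 is a doubling. The threshold was a limma p below 0.05 after Benjamini-Hochberg adjustment over all 14812 genes.

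EGOT, the targeted RNA, read 4.91, 4.90 and 4.69 in EGOT gapmer arrays, against 6.29, 6.79 and 6.71 in control gapmer arrays (limma adjusted p = 0.0076). Array medians lay between 5.08 and 5.23, and EGOT gapmer replicate 2 had the highest. Of 11 hepatocyte markers 9 were measured, and ALB averaged 13.67 with the EGOT gapmer and 13.68 with the control gapmer. Group means of the 9 measured markers, AFP among them, ran from 8.77 for APOA1 to 13.68 for ALB, both with the control gapmer. The number of arrays limits the precision of every value.

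Of the 12 genes, AADAC and ADH6 rose with the EGOT gapmer, by 0.64 and 0.41 on the log2 scale, and 0 fell. Among all genes 5.20% were called higher and 3.21% lower, so 2 calls among 12 genes are too few to set these enzymes apart. Before adjustment 4 genes had a p under 0.05, with MAOA and CES1 added, and all 4 were higher, against 25.0% of all genes in either direction, or 3708. The 3 EGOT gapmer values lay above all 3 control gapmer values in 5 genes, AADAC, ADH6, MAOA, CES1 and ALDH2, a pattern found in 20.2% of all genes. The median difference was 0.17 over the 12 genes and 0.18 over the 11 protein-coding genes among them, against 0.04 over all named genes. In bulk RNA a larger share of expressing cells and more RNA per cell cannot be told apart.

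**Figure D1:**
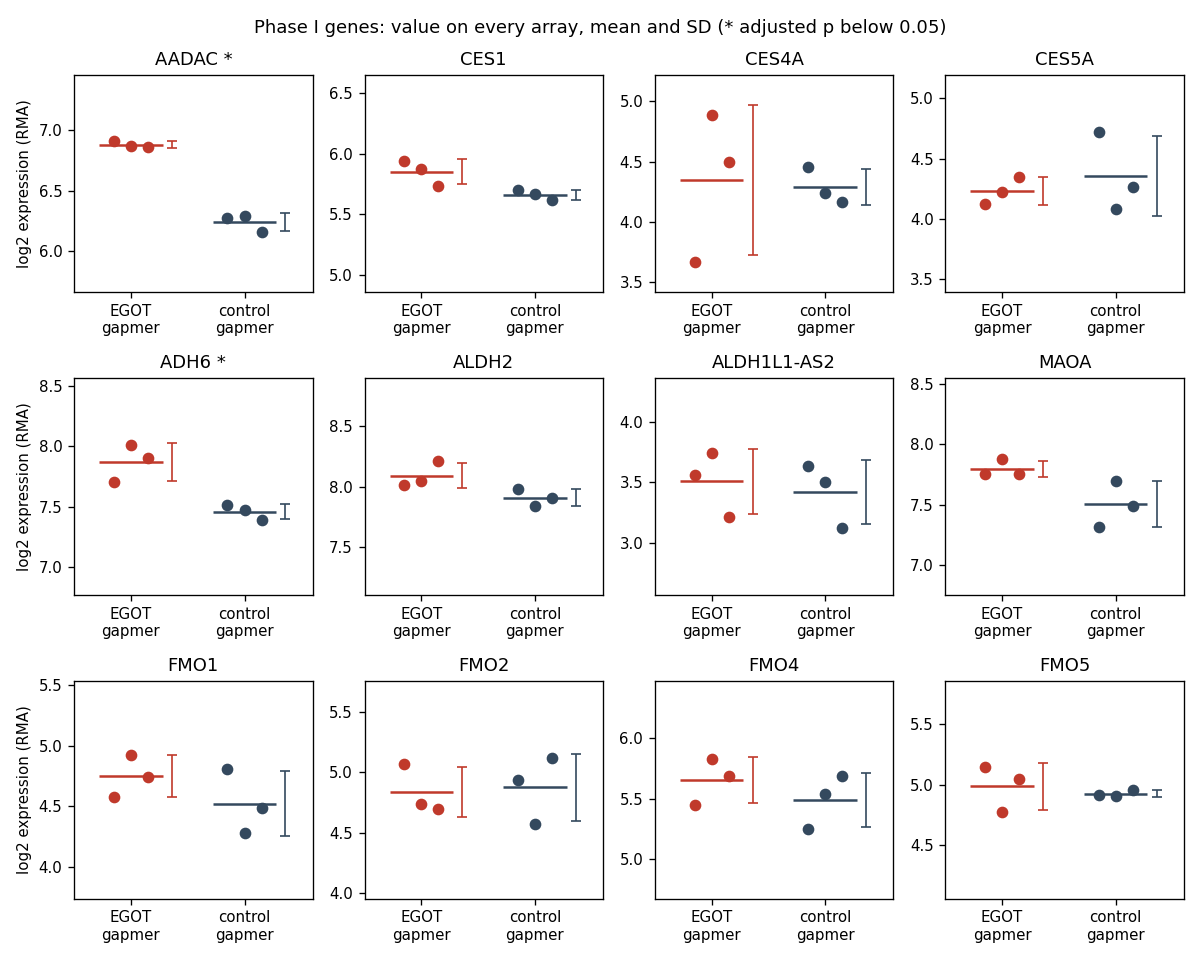
Log2 expression of each of the 12 genes on every array, EGOT gapmer left and control gapmer right, with group means as horizontal lines and SD bars beside them (n = 3 each). All panels span the same range of log2 units, and the groups are apart in AADAC, ADH6, MAOA, CES1 and ALDH2.

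AADAC and ADH6 were the members called, so the 250 bases before their annotated starts are shown, with those of MAOA, the member next in order of p. The sequences are those of RefSeq on GRCh38.p14, given in the direction of the gene, and capitals mark CG dinucleotides. AADAC lies on the plus strand at chr3:151813866-151814115, ADH6 on the minus strand at chr4:99219247-99219496 and MAOA on the plus strand at chrX:43656049-43656298.
AADAC: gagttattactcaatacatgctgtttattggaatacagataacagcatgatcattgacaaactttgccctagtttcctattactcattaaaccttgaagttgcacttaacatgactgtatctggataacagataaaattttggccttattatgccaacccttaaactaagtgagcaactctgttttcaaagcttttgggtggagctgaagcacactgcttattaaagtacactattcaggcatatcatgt
ADH6: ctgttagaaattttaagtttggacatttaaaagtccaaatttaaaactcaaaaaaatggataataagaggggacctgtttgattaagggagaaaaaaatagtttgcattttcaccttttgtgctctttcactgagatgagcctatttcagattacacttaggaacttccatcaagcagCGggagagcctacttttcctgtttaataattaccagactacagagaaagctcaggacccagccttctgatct
MAOA: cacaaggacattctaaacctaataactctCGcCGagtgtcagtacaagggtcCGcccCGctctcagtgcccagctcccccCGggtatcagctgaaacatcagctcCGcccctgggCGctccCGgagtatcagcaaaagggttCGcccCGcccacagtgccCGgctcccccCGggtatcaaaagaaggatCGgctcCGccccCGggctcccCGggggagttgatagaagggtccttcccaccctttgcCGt

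The windows of AADAC and ADH6 were poor in G and C, with 35.6% and 36.4%, and held 0 and 1 CG dinucleotides. That of MAOA was 63.2% G and C with 17 CG dinucleotides, and the medians over 35116 RefSeq promoter windows of the same length were 58% and 11. Of all windows 7.85% had no more G and C, and 14.7% no more CG dinucleotides, than that of ADH6. FMO1 had 1 window of 2 with a comparable base composition, at 34.4% G and C, and was not called. Both FMO1 windows held 2 CG dinucleotides. CES5A, also not called, had 1 window with 1 CG dinucleotide, at 42.4% G and C. Of the 12 genes 9 matched the promoter table by symbol, and CES4A, CES5A and FMO1 had 2 windows each.

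Motifs were chosen after the data were seen and searched on both strands. The TATA box motif TATAAA occurred in 10.7% of all windows, the HNF1 half-site GTTAAT in 6.23% and the nuclear receptor half-site AGGTCA in 12.1%. The windows of AADAC, ADH6 and MAOA held none of these letters. Matches fell in genes that were not called, with TATAAA in FMO1 and FMO5, GTTAAT in CES5A and FMO5 and AGGTCA in CES4A, CES5A and FMO1. A match describes these windows and is not a binding site.

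Among the hydrolases, AADAC rose. It encodes arylacetamide deacetylase, an esterase of the endoplasmic reticulum membrane that hydrolyses drugs such as phenacetin and flutamide. AADAC read 6.91, 6.87 and 6.86 in EGOT gapmer arrays, against 6.27, 6.29 and 6.15 in control gapmer arrays. The groups were separated by 0.58 log2 units, more than the range within either group. The difference was 0.64 with a standard error of 0.0709 and a 95% interval of 0.48 to 0.81, a fold of 1.56 (limma adjusted p = 0.0097). Of all genes, 0.56% had a larger rise. Its neighbouring pseudogene AADACP1, which the symbol rule leaves out, also rose, by 0.58 (limma adjusted p = 0.0145), and whether the 2 probe sets read each other's RNA was not tested. Leaving out 1 control gapmer array kept the difference between 0.60 and 0.67 but raised the limma adjusted p to between 0.0514 and 0.0563, whereas AADAC passed when any 1 EGOT gapmer array was left out.

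The carboxylesterase genes did not pass. CES1 encodes the main hepatic carboxylesterase, which hydrolyses ester drugs and cholesteryl and acylglycerol esters. CES1 read 5.94, 5.88 and 5.74 in EGOT gapmer arrays, against 5.70, 5.67 and 5.61 in control gapmer arrays. The lowest EGOT gapmer value was 0.04 above the highest control gapmer value, and the difference was 0.19 with a standard error of 0.0787 (limma adjusted p = 0.189). A second CES1 probe set averaged 5.13 ± 0.180 with the EGOT gapmer and 5.11 ± 0.0649 with the control gapmer (SD, n = 3 each), a difference of 0.02. The 2 probe sets therefore gave different sizes, and the mean of both had a difference of 0.10. CES1 has the pseudogenes CES1P1 and CES1P2, and which of these RNAs the probes read is uncertain. CES1P1 averaged 4.96 with the EGOT gapmer and 5.19 with the control gapmer, and CES1P2 6.22 and 6.25.

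CES4A and CES5A are less studied relatives of CES1, and CES5A is known in cats as a major urinary protein. CES4A read 3.67, 4.88 and 4.50 in EGOT gapmer arrays, against 4.46, 4.24 and 4.17 in control gapmer arrays. EGOT gapmer replicate 1 was the lowest and replicate 2 the highest of the 6 arrays, so the groups overlapped fully and the SD of 0.622 was the largest among the 12 genes. The difference of 0.06 had a 95% interval of -0.61 to 0.72 (limma adjusted p = 0.927). CES5A read 4.12, 4.22 and 4.35 in EGOT gapmer arrays, against 4.72, 4.09 and 4.26 in control gapmer arrays. Its difference of -0.13 (limma adjusted p = 0.693) turned to 0.06 without control gapmer replicate 1, the highest array.

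Among the dehydrogenases, ADH6 rose. It encodes a class V alcohol dehydrogenase, a member of the zinc-dependent family whose other classes oxidise ethanol and retinol. ADH6 read 7.70, 8.01 and 7.90 in EGOT gapmer arrays, against 7.52, 7.48 and 7.39 in control gapmer arrays. All EGOT gapmer values were higher, with 0.19 log2 units between the groups. The difference was 0.41 with a 95% interval of 0.19 to 0.64, a fold of 1.33 (limma adjusted p = 0.0454). This call was close to the threshold. It was kept with 1 array left out only when that array was EGOT gapmer replicate 1, and the limma adjusted p was otherwise between 0.0942 and 0.144. It was also lost once the trend of the differences on gene span was removed, at 0.33 (limma adjusted p = 0.0715).

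ALDH2 encodes the mitochondrial aldehyde dehydrogenase that clears acetaldehyde made from ethanol. ALDH2 read 8.02, 8.05 and 8.21 in EGOT gapmer arrays, against 7.98, 7.84 and 7.90 in control gapmer arrays. The groups did not overlap, but only by 0.03 log2 units, and the difference of 0.18 did not pass (limma adjusted p = 0.223). ALDH1L1-AS2 is an RNA antisense to the gene of a folate-metabolising aldehyde dehydrogenase, and was dim. It read 3.56, 3.74 and 3.21 in EGOT gapmer arrays, against 3.64, 3.50 and 3.12 in control gapmer arrays. The groups overlapped, with a difference of 0.09 (limma adjusted p = 0.809).

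MAOA encodes monoamine oxidase A of the outer mitochondrial membrane, which deaminates serotonin and noradrenaline. MAOA read 7.76, 7.88 and 7.76 in EGOT gapmer arrays, against 7.32, 7.70 and 7.49 in control gapmer arrays. All EGOT gapmer values were higher, though control gapmer replicate 2 was within 0.06 of them. The difference was 0.30 with a 95% interval of 0.04 to 0.55, a fold of 1.23 (limma adjusted p = 0.141). The call depended on the variance model and on which genes were tested. MAOA passed with a variance trend (limma adjusted p = 0.0423) and when only genes above the median of the gene means were tested (limma adjusted p = 0.0363).

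**Figure D2:**
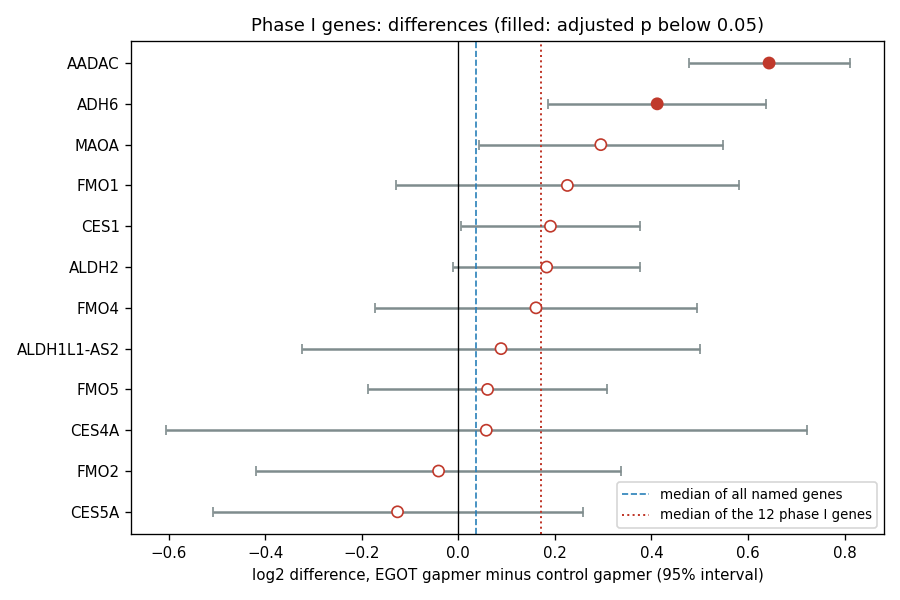
Log2 differences, EGOT gapmer minus control gapmer, of the 12 genes with 95% intervals from limma. Filled points passed the threshold, the dashed line is the median of all named genes at 0.04 and the dotted line the median of the 12 genes at 0.17. The intervals of AADAC, ADH6, MAOA and CES1 lie above 0.

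The flavin-containing monooxygenases, which oxidise nitrogen and sulphur atoms of drugs and dietary amines, showed 0 calls among 4 measured genes. FMO1, the form of fetal liver and adult kidney, read 4.57, 4.93 and 4.75 in EGOT gapmer arrays, against 4.80, 4.27 and 4.49 in control gapmer arrays. The groups overlapped, and the difference of 0.23 had a 95% interval of -0.13 to 0.58 (limma adjusted p = 0.417). FMO4 read 5.45, 5.83 and 5.69 in EGOT gapmer arrays, against 5.25, 5.54 and 5.69 in control gapmer arrays. In FMO4 too the groups overlapped, with a difference of 0.16 (limma adjusted p = 0.548).

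FMO5 is an adult liver form that catalyses Baeyer-Villiger oxidations. FMO5 read 5.15, 4.77 and 5.04 in EGOT gapmer arrays, against 4.92, 4.90 and 4.96 in control gapmer arrays. The control gapmer values lay within the range of the EGOT gapmer values, and the difference was 0.06 (limma adjusted p = 0.779). FMO2, the form known from lung, read 5.07, 4.74 and 4.69 in EGOT gapmer arrays, against 4.94, 4.57 and 5.11 in control gapmer arrays. The groups overlapped, the difference was -0.04 (limma adjusted p = 0.907), and a second FMO2 probe set had a difference of -0.13. Unadjusted, 0 of these 4 genes had a p under 0.05.

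The genes fell into a brighter and a dimmer set. AADAC, ADH6, MAOA and ALDH2 lay above the median of the means of all genes, 6.16, and their groups did not overlap. The other 8 lay below it, and in 1 of these, CES1, the groups did not overlap. Over all named genes 20.2% had every EGOT gapmer value higher. That share was not split by level, so whether the split is particular to these enzymes was not tested. The limma standard error, in which each gene's variance is drawn towards that of all genes, ran from 0.0709 for AADAC to 0.282 for CES4A. Its median was 0.0969 over all genes. In CES1 it was 0.0787, below the 0.096 of ADH6. Of the 12 genes 6 were highest of all arrays in EGOT gapmer replicate 2, the array with the highest median. The share of all genes highest in that array was not counted. Without that array the median difference was 0.15 over the 12 genes and 0.0098 over all named genes.

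**Figure D3:**
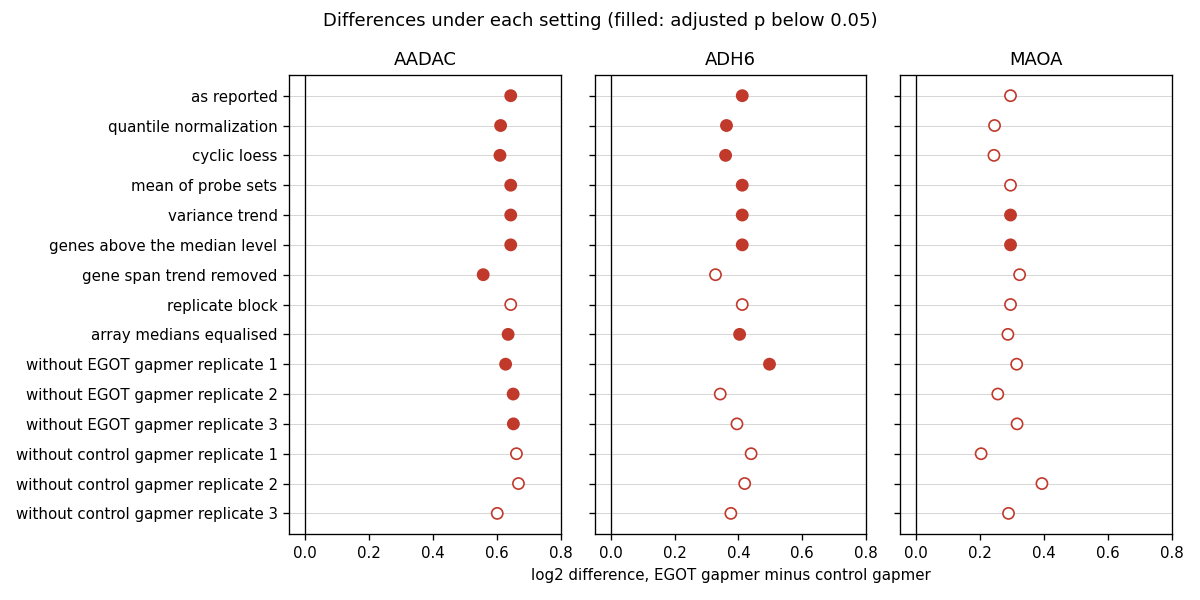
Log2 differences of AADAC, ADH6 and MAOA, EGOT gapmer minus control gapmer, as reported and under each of 14 other settings. Filled points passed the threshold in that setting, which AADAC did in 10, ADH6 in 7 and MAOA in 2 of the 14, and every point lies above 0.

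Genes that control or serve phase I enzymes were read as 3 lists. Of 27 listed regulators 10 were measured, and 2 rose and 0 fell, with a median difference of 0.00014. KEAP1, which holds the stress factor NRF2 in the cytosol for degradation, read 8.70, 8.85 and 8.76 in EGOT gapmer arrays, against 8.30, 8.22 and 8.20 in control gapmer arrays. Its difference was 0.53 with a standard error of 0.0742 (limma adjusted p = 0.0146). ARNT, the partner through which the dioxin receptor AHR binds DNA, read 8.54, 8.71 and 8.56 in EGOT gapmer arrays, against 8.22, 8.22 and 8.34 in control gapmer arrays. It rose by 0.35 (limma adjusted p = 0.0445), a call that was lost when any 1 array was left out (limma adjusted p between 0.07 and 0.146).

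AHR read 10.06, 10.10 and 10.09 in EGOT gapmer arrays, against 10.34, 10.36 and 10.32 in control gapmer arrays. All its EGOT gapmer values were lower. The difference of -0.26 did not pass (limma adjusted p = 0.0516), but it did in 5 of 14 other settings, among them quantile normalization (-0.30, limma adjusted p = 0.028). KEAP1 did not pass without EGOT gapmer replicate 3 or without any 1 control gapmer array (limma adjusted p between 0.0537 and 0.0744).

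Among 7 measured of 10 electron transfer partners, such as cytochrome b5 (CYB5A), 0 passed, with a median of 0.09. An unadjusted p under 0.05 was found in 2 of the 7, against 25.0% of all genes. Groups did not overlap in 3 partners that were higher and 2 that were lower, against 2992 and 1707 of all 14812 genes. Of 12 haem synthesis and breakdown genes 10 were measured, 1 rose and 0 fell, with a median of 0.19. Of these 10 genes 8 were above 0, against 8568 of all 14812 genes. An unadjusted p under 0.05 was found in 5 of the 10, against 25.0% of all genes. The mean over the list was 7.03 to 7.04 in EGOT gapmer arrays and 6.79 to 6.89 in control gapmer arrays, and a shift of the list was not tested. The gene that rose was UROD, uroporphyrinogen decarboxylase, at 8.54, 8.79 and 8.83 in EGOT gapmer arrays, against 8.15, 8.13 and 8.23 in control gapmer arrays. The difference was 0.55 (limma adjusted p = 0.0232). With 1 array left out UROD passed only without EGOT gapmer replicate 1, and the limma adjusted p was otherwise between 0.0586 and 0.0939.

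**Figure D4:**
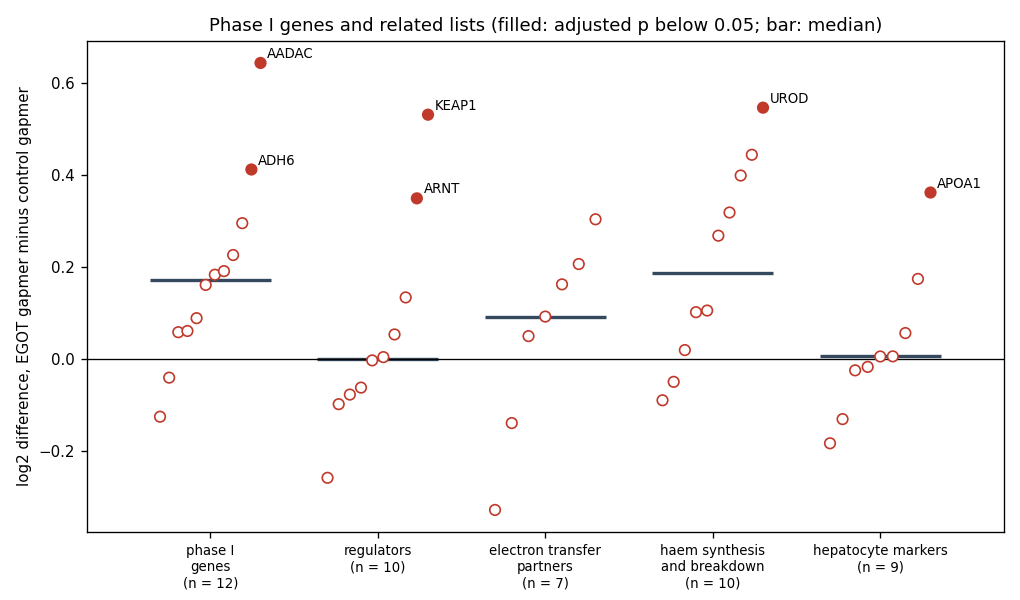
Log2 differences, EGOT gapmer minus control gapmer, of every measured gene in the 12 phase I genes and in lists of regulators, electron transfer partners, haem genes and hepatocyte markers. Bars are medians and filled, named points passed the threshold. All filled points are above 0.

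Hepatocyte markers had a median difference of 0.0051 over 9 genes, with differences in both directions. Groups did not overlap in 3 markers that were higher, APOA1, APOH (0.17) and AHSG (0.06). They did not overlap either in 2 that were lower, APOB (-0.18) and TTR (-0.13). Over all 14812 genes these numbers were 2992 and 1707. An unadjusted p under 0.05 was found in 3 of the 9, against 25.0% of all genes. Of the 9, 1 passed, APOA1, which rose by 0.36 (limma adjusted p = 0.0406). APOA1 passed in 3 of 14 other settings and not with any 1 array left out (limma adjusted p between 0.0645 and 0.14), after quantile normalization (0.0527) or cyclic loess (0.0513). Of 8 leukocyte markers 5 were measured and 2 rose, where 5.20% of all genes were called higher. These were CD68, by 1.06 (limma adjusted p = 0.0081), and LYZ, by 0.57 (limma adjusted p = 0.0171). LYZ had a difference of 1.13 as the mean of its probe sets and did not pass without any 1 control gapmer array (limma adjusted p between 0.0607 and 0.0804), and CD68 did not pass without control gapmer replicate 2 (limma adjusted p = 0.0562). The mean over the 5 leukocyte markers was 6.64 to 6.84 in EGOT gapmer arrays and 6.28 to 6.48 in control gapmer arrays. Of the 5 differences 3 were above 0 and 2 below. CD2 differed by 0.34 and CD163 by -0.32, and neither was called. The monocyte marker CD14, also not called, averaged 5.58 with the EGOT gapmer and 5.65 with the control gapmer. Of 4 measured endothelial, 2 stellate and fibroblast and 4 cholangiocyte markers 0 passed by limma, and 0 had an unadjusted p under 0.05. All samples were HuH7 cells, so these markers were read as genes and not as amounts of other cell types. Whether they bear on the rise of AADAC and ADH6 was not tested.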

How the data were processed

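The unit of the deposited table is log2 expression, obtained by the authors through RMA as listed in the submitters' processing notes. This method corrects background, normalizes quantiles between arrays and summarises probe sets, so a change in total RNA per cell would not be seen. Its version is not given in the sources used here. Of 44629 probe sets 15835 had 1 gene symbol in GEO's platform annotation, 0 had several and 28794 were not named here. Each gene was represented by its probe set with the highest mean over the 6 arrays. Groups were compared with limma 3.58.1 in R 4.3.3 (lmFit and eBayes, two-sided, Benjamini-Hochberg over 14812 genes, threshold 0.05). On data simulated from these genes the fit recovered 42% of 100 genes changed by 0.5 and 85% of 100 changed by 1 (log2), with 10 false calls among 137. The simulation changed 200 of 14812 genes and drew noise independently for each gene and array, so these rates need not hold for the real arrays. Alternatives were 2 other normalizations, the mean of probe sets, a variance trend, a filter on level, removal of a trend on gene span, a replicate block, each array left out and, added after the data were seen, equal array medians. The naming rule was EGOT, every member past the threshold, the next 6 by p and a preset panel of phase I genes, and ALDH1L1-AS2, FMO2 and CES4A were added so that every member is given. Panel genes outside the 12 members were not analysed here. In the other lists, genes that passed were named. AADACP1, CYB5A, CD14, CD163, CD2, ALB, APOB, APOH, AHSG, TTR and AHR were named after their values were seen. The members and lists were chosen with earlier results of these data known.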

Additional observations from a re-analysis of the deposited data

How the results depend on the processing

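With the replicate number as a block, AADAC (0.64, limma adjusted p = 0.0633), ADH6 (0.41, limma adjusted p = 0.104) and EGOT (-1.76, limma adjusted p = 0.0543) no longer passed, and 0 of 12 phase I genes and 0 of all genes were called. The labels do not say whether the numbers pair the arrays. Deviations of same-numbered arrays from their group means correlated at -0.03, -0.05 and 0.04. Other pairs ran from -0.08 to 0.10, and with 3 arrays per group these values cannot settle whether arrays were paired. With 1 array left out, 0 to 2 phase I genes were called, 0 without any 1 control gapmer array, and 9 to 579 of all genes, against 1245 with all arrays. The median over the 12 genes then lay between 0.14 and 0.24. Without the trend on gene span 1 phase I gene and 712 of all genes were called, and CES4A turned to -0.0183. With a variance trend 2513 genes were called. Among genes above the median level 2547 were called, and the median over the 4 phase I genes left was 0.35. MAOA passed in both, at 0.30. Differences that changed sign with 1 array left out ranged from -0.0608 to 0.23 in ALDH1L1-AS2, -0.21 to 0.40 in CES4A, -0.26 to 0.0577 in CES5A, -0.19 to 0.0787 in FMO2 and -0.0191 to 0.17 in FMO5, none of them called. Of the calls among all genes 770 were higher and 475 lower. These numbers were 679 and 674 after quantile normalization and 644 and 677 after cyclic loess. Under both of these AADAC and ADH6 passed and 10 of the 12 differences were above 0. Over all 14812 genes 8568 were above 0 with the deposited values, and the share after these normalizations is not given here. The cause of the changes between settings was not tested.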

Other observations

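Relatives of these enzymes that the symbol rule did not take in were read after the data were seen. EPHX3, an epoxide hydrolase, read 5.97, 5.91 and 5.78 in EGOT gapmer arrays, against 5.48, 5.59 and 5.55 in control gapmer arrays. It rose by 0.34 (limma adjusted p = 0.0444), but did not pass when any 1 array was left out (limma adjusted p between 0.068 and 0.138). EPHX4 differed by 0.21, below the threshold (limma adjusted p = 0.285). MAOB, the neighbour of MAOA, read 7.86, 8.14 and 7.88 in EGOT gapmer arrays, against 8.02, 7.89 and 7.72 in control gapmer arrays. Its groups overlapped, with a difference of 0.08 (limma adjusted p = 0.699), and whether it differed from that of MAOA was not tested. AADACP1, a transcribed pseudogene between AADACL2 and AADAC, read 4.28, 4.27 and 4.11 in EGOT gapmer arrays, against 3.56, 3.70 and 3.66 in control gapmer arrays. It rose by 0.58 (limma adjusted p = 0.0145), and did not pass without any 1 control gapmer array (limma adjusted p between 0.0642 and 0.0659). AADACL2, on its other side, had a difference of 0.02 (limma adjusted p = 0.883), with 4.08, 4.09 and 4.07 in EGOT gapmer arrays, against 4.16, 3.98 and 4.03 in control gapmer arrays. AADACL3 and AADACL4 had differences of -0.19 and -0.22 that were not called (limma adjusted p = 0.396 and 0.281). The 5 pseudogenes that matched the symbol rule and were left out, CES1P1, CES1P2, CES5AP1, FMO6P and FMO9P, had differences from -0.23 in CES1P1 to 0.13 in FMO6P, and none passed by limma.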
